A study of Danio rerio with 18 samples.

Results

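Genes of sterol synthesis and of lipoprotein transport were followed in the regenerating tail fin of zebrafish, with and without dioxin. The set names 9 genes by symbol: insig1, hmgcs1, hmgcra, sqlea, cyp51 and fdps for sterol synthesis, and apoeb, apoc1 and apoa1a for lipid carriage. Every probe set that carries one of these symbols in the platform annotation was taken, which gave 13 probe sets for 7 of the 9 genes, out of 15502 probe sets and 8793 named genes in all. No probe set carried the symbol hmgcra or sqlea, and both genes are not analysed here. Insig1 had 3 probe sets, cyp51 4, fdps 2 and each of the others 1. Where a gene had several, it is described by the probe set with the highest mean, and the others are set beside it.

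All 6 groups came from adult male AB zebrafish whose caudal fin had been cut where the fin rays branch. Control fish received phosphatidylcholine liposomes alone, and exposed fish received on the day of the cut the same liposomes loaded with TCDD, a chlorinated dioxin that activates the aryl hydrocarbon receptor, to a dose of 50 ng/g. Regenerating tissue was collected at 1, 3 or 5 days post amputation (dpa), and each array holds RNA of 10 pooled fins. Each group has 3 arrays, named here by the replicate letters A to E of the labels. An error is therefore a spread between pools, and the number of arrays limits its precision.

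Cells make cholesterol from acetyl-CoA through a chain of enzymes that passes through mevalonate, farnesyl pyrophosphate, squalene and lanosterol. The transcription factor SREBP2 drives most of these enzymes together when membrane sterol is low, and INSIG proteins hold SREBP and its escort SCAP in the endoplasmic reticulum when sterol is plentiful. Apolipoproteins carry lipid between cells: ApoA-I and ApoC-I are known mainly as plasma proteins made by liver. ApoC-I is also known in macrophages, and ApoE is also made by macrophages and many peripheral tissues. In zebrafish, apoe transcripts are known from the wound epidermis of regenerating fins and from microglia.

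Levels are given as log2(intensity + 1), on which a difference of 1 is a 2-fold change, and differences of dim transcripts are understated. The files hold no detection calls, so a gene is called dim here when it lies below the 40th percentile of its array on all 18 arrays. The tissue labels were set against marker lists. None of the 18 measured epidermal markers was dim, and the keratin gene krt4 lay at the 99.0 to 99.7 percentile. In the fin mesenchyme list 2 of 13 were dim, both bone regulators (sp7 and runx2b). In the liver and plasma list 15 of 19 were dim, including the liver fatty acid binding protein fabp10a, and in the intestine list 4 of 5.

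Apoc1 was 3.80-fold higher in TCDD fins than in vehicle fins at 3 dpa, and apoeb and apoc1 were higher under TCDD in the mean over the 3 days, by 1.21-fold and 2.04-fold. The single-day differences of apoeb at 3 and 5 dpa and of apoc1 at 5 dpa missed the threshold. They passed when the replicate letter was fitted as a block, and that of apoeb at 5 dpa also without vehicle pool E at 1 dpa. The calls of apoc1 at 3 dpa and in the mean depended on single arrays. Both transcripts rose from 1 to 5 dpa in either exposure, the rise of apoeb in vehicle fins not passing with that block. The sterol synthesis enzymes hmgcs1, fdps and cyp51 passed no test of exposure or time, and 1 vehicle array at 3 dpa held higher levels of all 3 than the other vehicle arrays of that day.

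Apoc1 encodes the homologue of ApoC-I, a small exchangeable apolipoprotein that in mammals inhibits lipoprotein clearance and CETP. Its log2 level at 1 dpa was 6.66, 7.75 and 6.96 in vehicle pools B, D and E, and 7.59, 6.38 and 6.63 in TCDD pools A, B and D. At 3 dpa it was 8.45, 8.12 and 8.20 in vehicle pools A, B and C, and 10.26, 9.25 and 11.04 in TCDD pools A, B and C. At 5 dpa it was 9.32, 8.85 and 8.85 in vehicle pools A, B and C, and 10.65, 9.81 and 10.77 in TCDD pools A, B and D. The exposures overlapped at 1 dpa and were fully apart at 3 and 5 dpa, where the lowest TCDD pool, letter B on both days, stood above the highest vehicle pool. The share of all genes whose pools lie apart in this way is not given here. Such separation, here and for apoeb and insig1 below, is therefore a description of the pools and no test.

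TCDD pools exceeded vehicle pools at 3 dpa by 1.93 ± 0.42 (SE, n = 3 and 3, limma's adjusted p = 0.038). The corresponding difference at 5 dpa was 1.40 ± 0.42, a 2.65-fold higher level that missed the threshold of 0.05 (limma's adjusted p = 0.10). At 1 dpa it was -0.26 ± 0.42 (limma's adjusted p = 0.93). Limma estimates the SE of a gene over all 6 groups, so it was the same on each day. It is not the spread of the compared pools alone, whose SD at 3 dpa was 0.17 in vehicle and 0.89 in TCDD. The mean of the 3 daily effects was 1.02 ± 0.24, or 2.04-fold (limma's adjusted p = 0.026). Among the 8793 genes the difference of apoc1 ranked 16th from the top at 3 dpa and 38th at 5 dpa. The call at 3 dpa ended when any 1 of 9 of the 18 arrays was left out, with adjusted p up to 0.18, and without all arrays of letter C the difference was 1.47 (adjusted p = 0.46). TCDD pool C at 3 dpa held the highest apoc1 level of all 18 arrays, 11.04, and also the highest apoeb level, 14.06. On that array the log2 gap between the 3′ and 5′ GAPDH control probe sets, a measure of RNA integrity, was 4.06, the largest of all 18, and on vehicle pool C at 3 dpa it was 3.38. Over the other 16 arrays it ran from 1.38 to 3.03. The same gap for the actin control pair was 2.096 on TCDD pool C and 1.626 on vehicle pool C at 3 dpa. On the other 16 arrays the actin gap ran from 1.455 to 2.322, so neither array stood out by that pair. The part of these gaps in the results was not tested. Leaving out any 1 of 8 arrays likewise ended the call for the mean effect, with adjusted p up to 0.058, and without letter C it was 0.85 (adjusted p = 0.16). The 9 arrays for the effect at 3 dpa were vehicle E at 1 dpa, vehicle A, B and C at 3 dpa, TCDD A and C at 3 dpa and vehicle A, B and C at 5 dpa. The 8 for the mean were vehicle E and TCDD A at 1 dpa, vehicle C and TCDD A at 3 dpa, vehicle B and C at 5 dpa and TCDD A and D at 5 dpa.

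Pools of the same letter deviate together in these data, so letter was also fitted as a block. With that block the apoc1 difference was 1.93 at 3 dpa (limma's adjusted p = 0.0064) and 1.43 at 5 dpa (limma's adjusted p = 0.044), so that it passed on both days. Within letters, TCDD minus vehicle at 3 dpa was 1.81 for A, 1.14 for B and 2.83 for C. At 5 dpa it was 1.33 for A and 0.96 for B, and at 1 dpa it was -0.27 for B and -1.12 for D. Every shared letter was higher under TCDD at 3 and 5 dpa and lower at 1 dpa, although the test of whether the TCDD effect changes with day did not pass for apoc1 (limma's adjusted p = 0.28, and 0.17 with the block).

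Apoeb encodes one of the zebrafish ApoE proteins, the ligand through which lipoprotein remnants bind receptors of the LDL receptor family. It was among the brightest transcripts on every array, at the 98.7 to 99.4 percentile. Its log2 level at 1 dpa was 13.23, 13.12 and 12.87 in vehicle pools B, D and E, and 13.15, 13.15 and 13.09 in TCDD pools A, B and D. At 3 dpa it was 13.51, 13.50 and 13.56 in vehicle pools A, B and C, and 13.89, 13.78 and 14.06 in TCDD pools A, B and C. At 5 dpa it was 13.47, 13.45 and 13.68 in vehicle pools A, B and C, and 13.99, 13.77 and 13.98 in TCDD pools A, B and D. As for apoc1, the exposures overlapped at 1 dpa and did not overlap at 3 or 5 dpa.

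The differences in apoeb were small against its level: 0.39 ± 0.10 at 3 dpa (1.31-fold, limma's adjusted p = 0.092) and 0.38 ± 0.10 at 5 dpa (1.30-fold, limma's adjusted p = 0.070). Both missed the threshold, and both passed with the letter block, at 0.39 (adjusted p = 0.011) and 0.44 (adjusted p = 0.010). At 1 dpa the difference was 0.05 ± 0.10. The mean of the 3 daily effects was 0.27 ± 0.06, or 1.21-fold (n = 9 and 9, limma's adjusted p = 0.013), and it passed without any single array. Within letters, TCDD minus vehicle was 0.38, 0.28 and 0.49 for A, B and C at 3 dpa, 0.52 and 0.32 for A and B at 5 dpa, and -0.08 and -0.03 for B and D at 1 dpa.

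Apoa1a, a zebrafish gene for ApoA-I, the main protein of high density lipoprotein, was dim, at the 14.0 to 25.8 percentile. It ranged from 3.27 to 3.95 over all 18 arrays and passed no test. Only 2 arrays reached 3.95, TCDD pool A at 3 dpa and TCDD pool D at 5 dpa, and the other pools of those groups stayed between 3.27 and 3.47.

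**Figure D1:**
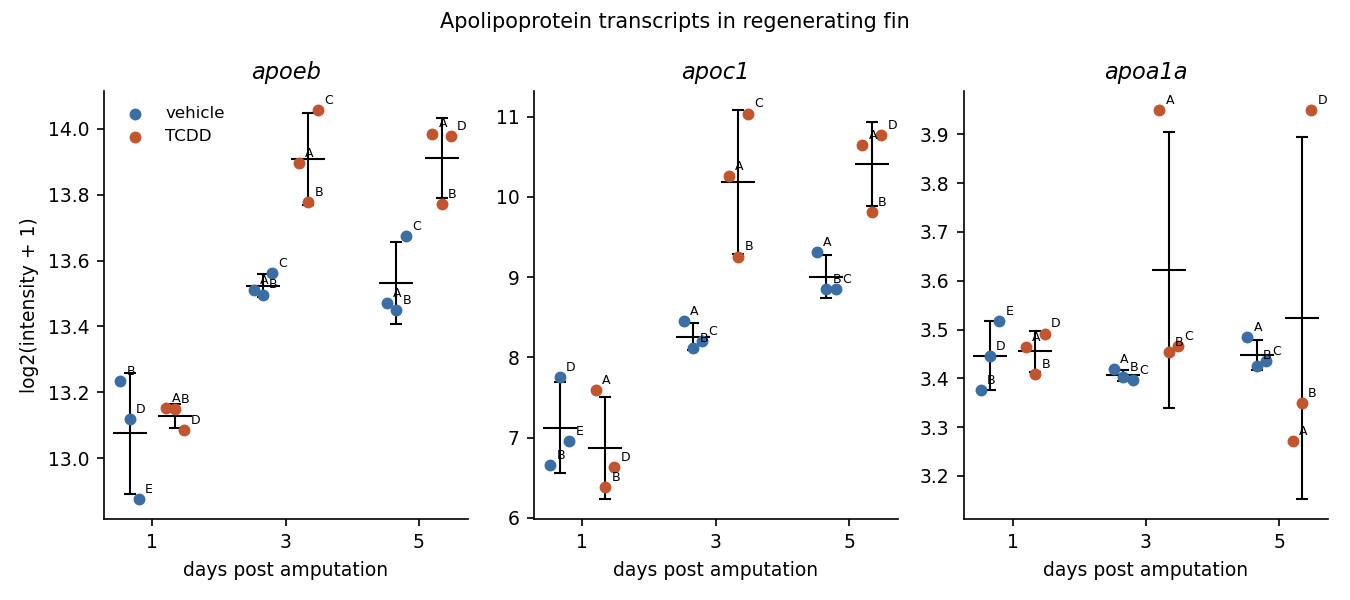
Levels of apoeb, apoc1 and apoa1a as log2(intensity + 1) against days post amputation, 1 point per array with its replicate letter, vehicle in blue and TCDD in orange, and bars for the group mean ± SD (n = 3). The axes differ between genes and do not start at 0. The apoeb and apoc1 points of the TCDD groups lie above those of the vehicle groups at 3 and 5 dpa and overlap them at 1 dpa, and apoa1a stays between 3.27 and 3.95.

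Counted over the 7 measured genes, TCDD changed 0 at 1 dpa, 1 at 3 dpa (apoc1), 0 at 5 dpa and 2 in the mean effect (apoeb and apoc1), in limma with Benjamini-Hochberg adjustment. Of all 15502 probe sets, limma called 0.245% at 1 dpa, 1.11% at 3 dpa, 1.64% at 5 dpa and 3.78% in the mean effect. These shares and those below are over probe sets, while members and list genes are counted by their brightest set. Counted that way over 8793 genes, 19 were higher and 7 lower under TCDD at 1 dpa. The numbers were 44 and 82 at 3 dpa, 84 and 84 at 5 dpa, and 164 and 218 in the mean effect. At an unadjusted p under 0.05, a looser threshold than that of the shares above, the members numbered 0, 3, 2 and 3. The shares of all probe sets at the unadjusted threshold are not given here. Unadjusted counts, here and below, are therefore not a result about the genes counted. With the letter block, 3 of 7 passed at 3 dpa (insig1, apoeb and apoc1) against 3.15% of all probe sets. Under the same block 2 of 7 passed at 5 dpa against 3.35%, and 2 of 7 passed in the mean effect against 6.86%. The effect of TCDD differed between days for 0 of 7 members in limma, against 0.0516% of all probe sets, and 2 members had an unadjusted p under 0.05. Over the 3 lipid carriers the median TCDD difference was 0.01, 0.39 and 0.38 at 1, 3 and 5 dpa, beside 0.04, 0.04 and 0.01 over all genes. A median of 3 genes is the value of 1 gene, here apoa1a at 1 dpa and apoeb at 3 and 5 dpa. It therefore shows no shift of the 3 as a group.

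**Figure D2:**
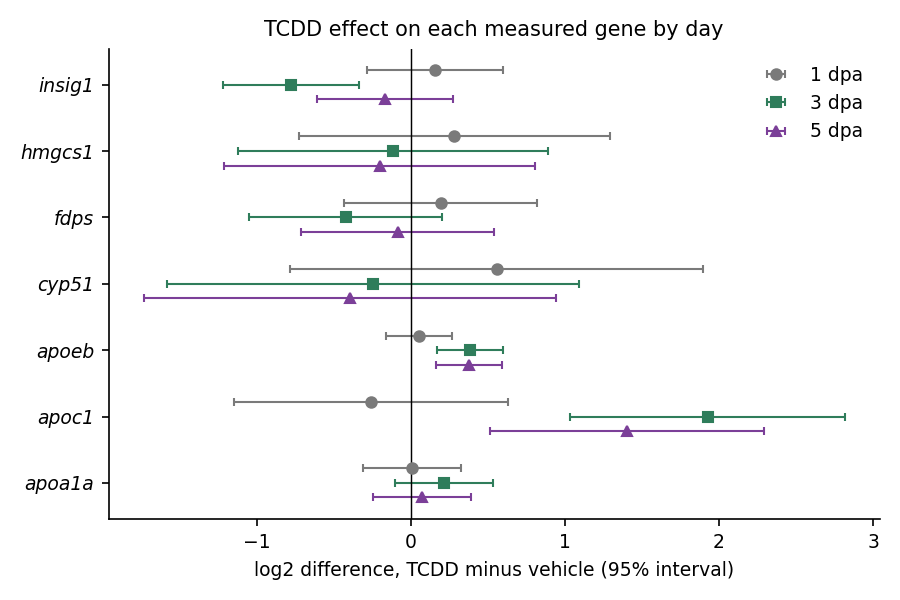
TCDD minus vehicle on the log2 scale for the 7 measured genes at 1, 3 and 5 dpa, with the 95% interval of each difference from limma, not adjusted for the number of probe sets (3 arrays in each of the groups compared). The apoc1 estimates at 3 and 5 dpa, 1.93 and 1.40, lie farthest from 0, the apoeb estimates have the narrowest intervals, and the insig1 estimate at 3 dpa, -0.78, lies below 0.

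The apolipoprotein transcripts also changed with time in vehicle fins. From 1 to 5 dpa apoc1 rose by 1.88 ± 0.42 (3.69-fold, limma's adjusted p = 0.0057) and apoeb by 0.46 ± 0.10 (1.37-fold, limma's adjusted p = 0.0054). From 1 to 3 dpa apoeb rose by 0.45 ± 0.10 (limma's adjusted p = 0.017), and apoc1 differed by 1.14 ± 0.42 without passing (limma's adjusted p = 0.14). With the letter block the apoeb steps were 0.26 to 3 dpa (adjusted p = 0.11) and 0.27 to 5 dpa (adjusted p = 0.058), so that both calls ended, while apoc1 from 1 to 5 dpa still passed at 1.62 (adjusted p = 0.018). Vehicle pool E at 1 dpa held the lowest apoeb level of all arrays, 12.87. Without it, or without vehicle pool C at 3 dpa, the step of apoeb to 3 dpa did not pass, with adjusted p up to 0.080.

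Both apolipoprotein transcripts rose with time in TCDD fins too. From 1 to 3 dpa apoc1 rose by 3.32 ± 0.42 (9.97-fold, limma's adjusted p = 0.00030) and apoeb by 0.78 ± 0.10 (1.72-fold, limma's adjusted p = 0.00032). From 1 to 5 dpa apoc1 rose by 3.54 ± 0.42 (11.7-fold, limma's adjusted p = 8.2e-05) and apoeb by 0.78 ± 0.10 (limma's adjusted p = 0.00014). The step from 3 to 5 dpa was 0.23 for apoc1 and 0.00 for apoeb, and neither passed. Ordered by mean, the apoc1 groups ran from TCDD at 1 dpa (6.87 ± 0.64, SD) and vehicle at 1 dpa (7.12 ± 0.57) through vehicle at 3 dpa (8.26 ± 0.17) and vehicle at 5 dpa (9.01 ± 0.27) to TCDD at 3 dpa (10.18 ± 0.89) and TCDD at 5 dpa (10.41 ± 0.52). The pair at 1 dpa and the TCDD pair at 3 and 5 dpa differed by less than their SE. The vehicle pair at 3 and 5 dpa differed by 0.75 ± 0.42, which missed the threshold (limma's adjusted p = 0.49, and 0.23 with the letter block).

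Over the same steps, 2 of 7 members passed in vehicle fins from 1 to 3 dpa (insig1 and apoeb), 0 from 3 to 5 dpa and 2 from 1 to 5 dpa (apoeb and apoc1), in limma. The shares of all probe sets were 5.51%, 0.342% and 17.3%, and the members with an unadjusted p under 0.05 numbered 3, 1 and 2. Counted by gene, 351 of 8793 rose and 238 fell from 1 to 3 dpa. From 1 to 5 dpa 656 rose and 1255 fell. With the letter block 0 of 7 passed from 1 to 3 dpa against 6.07%, with 3 at an unadjusted p under 0.05, and 1 of 7 from 1 to 5 dpa against 14.9%. In TCDD fins 2 of 7 passed from 1 to 3 dpa against 10.8% of all probe sets, and 2 of 7 from 1 to 5 dpa against 19.1%. From 3 to 5 dpa 0 of 7 passed against 0.0129%, and 0 of 7 had an unadjusted p under 0.05.

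Apoeb and apoc1 are next to each other in the RefSeq gene table (assembly GRCz12tu), in a run with apoa4b.1, apoa4b.2, apoc4, apoa2 and apoc2. All 5 of these neighbours were dim. The second apoe gene, apoea, was also dim, at 3.41 to 3.74. Of 13 other apolipoprotein genes measured, 11 were dim and 2 stood above the 40th percentile on all arrays, apodb at 7.24 to 9.41 and apol1 at 8.25 to 9.67. Across the 18 arrays apoeb and apoc1 correlated at r = 0.93, and at r = 0.43 once each group's mean was removed, where arrays share letter and day. Outside the members, the probe sets most like apoeb over the 18 arrays, among 7457 with a mean level of at least 5, were those of cetn4 (r = 0.96), dlx2b (0.94), fgf10a (0.94), asb8 (0.94) and tcn2 (0.93). Once each group's mean was removed, the r of these 5 was 0.78, 0.635, 0.59, 0.57 and 0.65.

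The wider list of lipid carriers, lipoprotein receptors and lipases held 24 measured genes of 36 listed, 16 of them dim. TCDD changed 0 of the 24 at any day or in the mean effect in limma, with 3, 4 and 4 at an unadjusted p under 0.05 at 1, 3 and 5 dpa and 3 in the mean. With time, clu (clusterin, an extracellular chaperone also called apolipoprotein J) rose from 1 to 3 dpa by 1.67 ± 0.44 in vehicle fins (limma's adjusted p = 0.038) and by 1.54 ± 0.44 in TCDD fins (limma's adjusted p = 0.036). With the letter block the vehicle step of clu was 1.02 (adjusted p = 0.18), and the vehicle call ended without vehicle D or E at 1 dpa or A or C at 3 dpa (adjusted p up to 0.16). The TCDD call ended without TCDD B or D at 1 dpa or any TCDD pool at 3 dpa (adjusted p up to 0.16). Clu was the only 1 of the 24 called in each of these steps, where 5.51% and 10.8% of all probe sets passed. From 1 to 5 dpa in vehicle fins, 3 of the 24 rose, against 17.3% of all probe sets called in either direction. These were clu by 1.65, lrp1aa, an endocytic receptor that binds ApoE in mammals, by 1.15 ± 0.26 (limma's adjusted p = 0.0066), and scarb1, the scavenger receptor for high density lipoprotein, by 0.90 ± 0.27 (limma's adjusted p = 0.032). The letter block also ended the clu call at 5 dpa (adjusted p = 0.13), as did the absence of vehicle D at 1 dpa or A or C at 5 dpa (adjusted p up to 0.082). The scarb1 call ended without vehicle B or D at 1 dpa or C at 5 dpa (adjusted p up to 0.15). In TCDD fins over the same days lrp1aa rose by 0.78 and the dim apoba fell by 0.36, 2 of 24 against 19.1%. The lrp1aa call depended on each of 14 arrays (adjusted p of at most 0.17 with 1 of them left out), and that of apoba without TCDD B at 1 dpa or D at 5 dpa (adjusted p up to 0.065).

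Macrophages express ApoE in many tissues, so their markers are given beside these genes. In bulk tissue, fewer cells of a type and less RNA per cell cannot be told apart. The macrophage and neutrophil list had 18 measured genes of 28, none of them dim on all arrays. In the mean effect of TCDD, 1 rose and 3 fell in limma, against 3.78% of all probe sets called in either direction. At an unadjusted p under 0.05 the genes numbered 9. Mpx, neutrophil myeloperoxidase, rose by 3.80 ± 0.21. The scavenger receptor marco, the complement gene c1qc and the transcription factor spi1b fell by 1.52, 1.05 and 0.55. On single days mpx rose by 3.70, 3.91 and 3.80 at 1, 3 and 5 dpa, from low vehicle means of 3.46, 3.64 and 4.06. Its level lay below the 40th percentile on 9 of the 18 arrays. C1qc differed by -1.30 and -1.14 at 1 and 3 dpa. On those days 0.245%, 1.11% and 1.64% of all probe sets passed. The c1qc calls ended without any 1 of 12 arrays at 1 dpa and 7 at 3 dpa (limma's adjusted p up to 0.25 and 0.17). The spi1b call depended on each of 9 arrays (adjusted p of at most 0.067 with 1 of them left out). Summed intensity of the list ran from 28640 to 39160 in vehicle and from 30360 to 37960 in TCDD at 3 dpa, and from 31800 to 39530 and from 35390 to 44310 at 5 dpa, so that the exposures overlapped on both days. Cd74a, cd74b and ctsba, a cathepsin, made up a median of 82.7% of that sum, which therefore says little of mpx, marco or c1qc. At 1 dpa the sums were 28620 to 35260 in vehicle and 23400 to 27460 in TCDD, without overlap. From 1 to 3 dpa in TCDD fins the antigen presentation genes cd74a and cd74b rose by 0.54 and 0.74 and grna (progranulin) by 1.01. These were 3 of the 18, against 10.8% of all probe sets called in either direction. The grna call ended without TCDD C at 3 dpa (adjusted p = 0.051). The cd74b call ended without that array or TCDD A at 1 dpa (adjusted p up to 0.087), and the cd74a call without TCDD A or D at 1 dpa or B or C at 3 dpa (adjusted p up to 0.15). From 1 to 5 dpa in TCDD fins cd74a, cd74b and grna rose by 0.73, 0.995 and 0.99, against 19.1% of all probe sets. These 3 calls held without any single array. In vehicle fins cd74a rose by 0.51 over those days, 1 of 18 against 17.3%. That call ended without vehicle D or E at 1 dpa or B or C at 5 dpa (adjusted p up to 0.15). The list's part in the apoeb and apoc1 results was not tested.

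Markers of fin tissue moved as well. Summed intensity of the fin mesenchyme list at 3 dpa ran from 49460 to 64420 in vehicle and from 39140 to 41290 in TCDD fins, and and2, a fin ray actinotrichia gene, fell under TCDD, with differences of -2.83 at 3 dpa and -2.04 at 5 dpa. At 5 dpa the sums overlapped, at 70790 to 79240 and 47850 to 72490. The genes col1a1a, col1a2 and fn1b made up a median of 70.2% of the mesenchyme sum. In that list 1 gene rose and 1 fell under TCDD at 5 dpa in limma. In the epidermal list the sums were 172700 to 198900 and 160300 to 183200 at 3 dpa, and 181400 to 197300 and 165800 to 180100 at 5 dpa. The keratin genes krt91, krt94 and krt5 made up a median of 48.6% of the epidermal sum. Of the 18 epidermal genes, krt94 fell under TCDD, with differences of -1.83 at 3 dpa and -2.19 at 5 dpa, and krt17 rose in the mean effect by 0.50. Of the 13 mesenchyme genes, the collagen genes col1a1a and col1a2 fell in the mean effect by 0.55 and 0.54, and the blastema gene msx2b rose by 1.23. Of all probe sets, 1.11% passed for TCDD at 3 dpa, 1.64% at 5 dpa and 3.78% in the mean effect. Calls ended for krt94 at 3 dpa without any 1 of 5 arrays, for krt17 without any 1 of 9 and for and2 at 5 dpa without vehicle C (adjusted p up to 0.13, 0.070 and 0.054). The part of these tissue markers in the apolipoprotein results was not tested. Of the 19 liver and plasma genes, hp (haptoglobin) fell in the mean effect by 0.91, and the list's sums did not overlap at 5 dpa, at 4428 to 6355 in vehicle and 1141 to 2332 in TCDD fins. A median of 89.0% of that sum was 1 gene, rbp4 (the retinol carrier of plasma), which differed by -1.66 ± 0.51 at 5 dpa without passing (limma's adjusted p = 0.12), and the list's median difference on that day was -0.10. The erythrocyte list had 7 of 11 genes dim and took 90.2% of its sum, as a median, from the globin gene hbaa1, with sums at 3 dpa of 2613 to 4663 in vehicle and 4929 to 6429 in TCDD fins and none of the 11 changed by TCDD in limma. The part of these lists was not tested either.

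Insig1 is the regulator among the sterol members, and in mammals it is itself a target of SREBP. Its log2 level at 3 dpa was 6.75, 6.86 and 7.46 in vehicle pools A, B and C, and 6.16, 5.99 and 6.57 in TCDD pools A, B and C. All vehicle pools lay above all TCDD pools on that day. At 1 dpa the level was 6.39, 6.21 and 6.21 in vehicle pools B, D and E, and 6.68, 6.40 and 6.20 in TCDD pools A, B and D. At 5 dpa it was 6.65, 6.34 and 6.70 in vehicle pools A, B and C, and 6.52, 6.23 and 6.44 in TCDD pools A, B and D. The exposures overlapped at 1 and 5 dpa, and vehicle pool C at 3 dpa was the highest of all 18.

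The TCDD difference of insig1 at 3 dpa was -0.78 ± 0.21 (n = 3 and 3), which missed the threshold (limma's adjusted p = 0.10) and passed with the letter block at the same size (adjusted p = 0.014). It was -0.59, -0.86 and -0.88 within letters A, B and C. At 1 and 5 dpa the differences were 0.16 and -0.17, and the mean effect was -0.26 ± 0.12 (limma's adjusted p = 0.30). The test that the effect differs between days did not pass for insig1 (limma's adjusted p = 0.32). In vehicle fins insig1 rose from 1 to 3 dpa by 0.75 ± 0.21 (1.68-fold, limma's adjusted p = 0.046). With the letter block that step was 0.44 (adjusted p = 0.22), and leaving out any 1 of 13 of the 18 arrays ended the call, with adjusted p up to 0.24. The call held only without TCDD A or D at 1 dpa, vehicle A at 3 dpa or TCDD B or C at 3 dpa.

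The second probe set of insig1 gave TCDD differences of -0.31, -0.77 and -0.80 at 1, 3 and 5 dpa, none of which passed. Its mean effect was -0.63 ± 0.21 (limma's adjusted p = 0.13, and 0.060 with the letter block). Both probe sets were lower under TCDD at 3 dpa by nearly the same amount in the mean, and they parted at 1 and 5 dpa. In the second set the exposures overlapped at 3 dpa. Vehicle pool A, at 5.40, lay below TCDD pools A and B, at 5.43 and 5.44. The second set differed by 0.71 from 1 to 3 dpa in vehicle fins (limma's adjusted p = 0.33). The third set was dim, at 3.38 to 5.29. Its TCDD differences were -0.16, -0.24 and -0.65 at 1, 3 and 5 dpa, and its vehicle step from 1 to 3 dpa was -0.14. None of these passed.

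Hmgcs1 makes HMG-CoA, the substrate of the step that statins block. Its log2 level at 1 dpa was 8.91, 8.06 and 8.80 in vehicle pools B, D and E, and 9.64, 8.83 and 8.15 in TCDD pools A, B and D. At 3 dpa it was 8.29, 9.64 and 7.82 in vehicle pools A, B and C, and 8.84, 8.09 and 8.48 in TCDD pools A, B and C. At 5 dpa it was 8.06, 7.95 and 8.23 in vehicle pools A, B and C, and 8.71, 7.80 and 7.13 in TCDD pools A, B and D. The exposures overlapped on each day, and the highest and lowest vehicle pools at 3 dpa, B and C, spanned most of the range of all 18 arrays.

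Fdps makes farnesyl pyrophosphate, where the paths to sterols and to protein prenylation part. It ranged from 6.91, in TCDD pool D at 5 dpa, to 8.74, in vehicle pool B at 3 dpa, and the other 16 arrays lay between 7.17 and 8.04. Cyp51 removes a methyl group from lanosterol. Its level at 3 dpa was 4.98, 7.24 and 4.97 in vehicle pools A, B and C, and 5.32, 6.001 and 5.13 in TCDD pools A, B and C. Over all arrays it ran from 4.74 to 7.30, at the 34.2 to 61.7 percentile, the highest being TCDD pool B at 1 dpa.

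None of these enzymes passed for TCDD in limma. The differences of hmgcs1 at 1, 3 and 5 dpa were 0.28, -0.12 and -0.20, each ± 0.47, those of fdps 0.19, -0.42 and -0.08, each ± 0.29, and those of cyp51 0.56, -0.24 and -0.39, each ± 0.63. The interval of the mean effect at 95% was -0.59 to 0.57 for hmgcs1, -0.47 to 0.26 for fdps and -0.80 to 0.75 for cyp51. These intervals are not adjusted for the number of probe sets. With time, hmgcs1 in TCDD fins differed from 1 to 5 dpa by -0.99 ± 0.47 (limma's adjusted p = 0.15, and 0.078 with the letter block), and no step of fdps or cyp51 passed. Over the 4 sterol members the median TCDD difference was 0.24, -0.33 and -0.18 at 1, 3 and 5 dpa, beside 0.04, 0.04 and 0.01 over all genes. The median at 3 dpa turned to 0.19 without vehicle pool B of that day, and those at 1 and 5 dpa ran from 0.04 to 0.48 and from -0.27 to -0.03 with single arrays left out. Limma called 0 of the 4 on each day, with insig1 at 3 dpa the only 1 at an unadjusted p under 0.05.

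The second probe set of fdps gave 0.22, -0.51 and 0.05, and that of cyp51 gave 0.57, -0.63 and -0.30. The second cyp51 set is of a class whose probes may also match other transcripts. Neither second set passed. The other 2 cyp51 sets were dim, at 3.10 to 3.82.

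**Figure D3:**
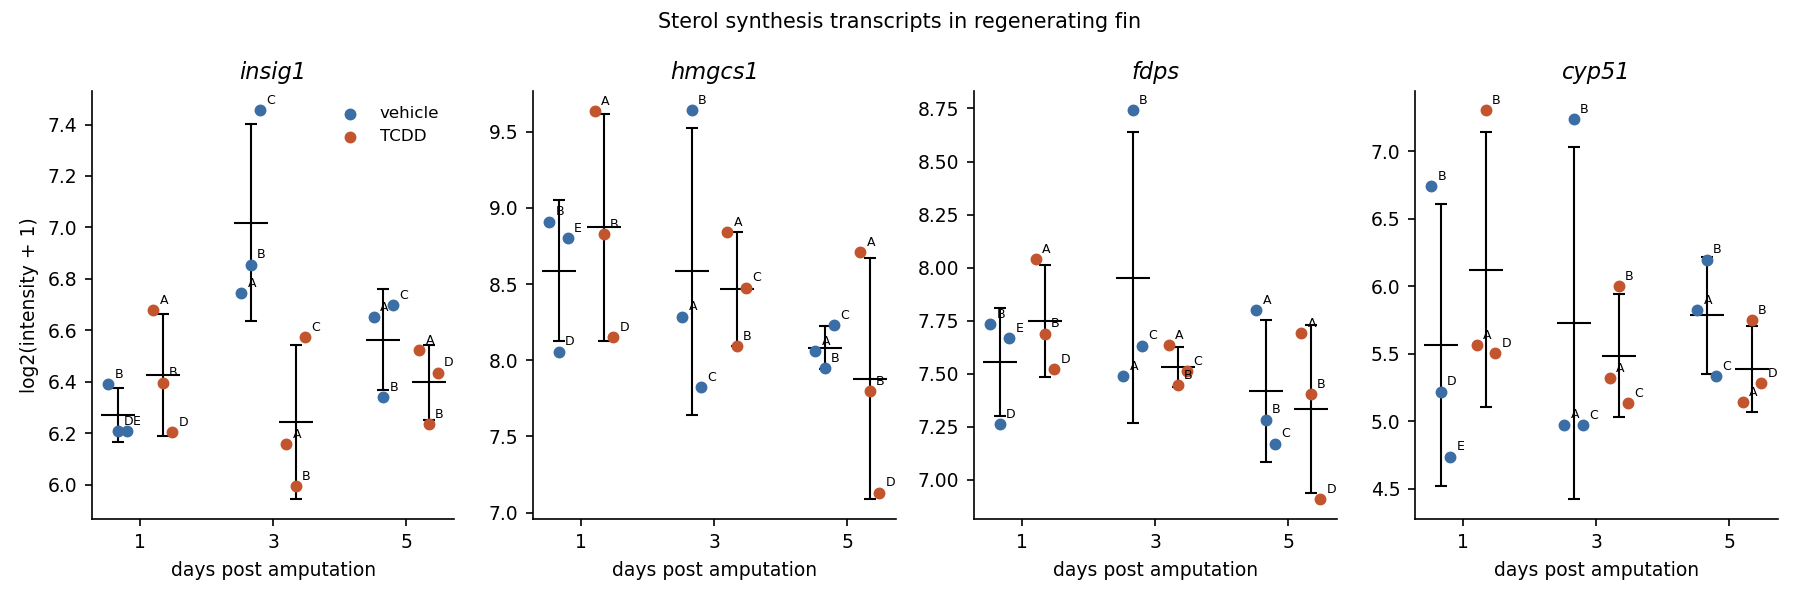
Levels of insig1, hmgcs1, fdps and cyp51 as log2(intensity + 1) against days post amputation, 1 point per array with its replicate letter, vehicle in blue and TCDD in orange, and bars for the group mean ± SD (n = 3). The axes differ between genes and do not start at 0. Vehicle pool B at 3 dpa stands above the other vehicle pools of that day for hmgcs1, fdps and cyp51, and the insig1 vehicle pools lie above the TCDD pools at 3 dpa.

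Vehicle pool B at 3 dpa stood apart for the enzymes. It held 9.64 for hmgcs1 and 8.74 for fdps, the highest of all 18 arrays (TCDD pool A at 1 dpa also reached 9.64 for hmgcs1), and 7.24 for cyp51, the second highest. Other genes of the pathway were high on the same array: msmo1, which removes methyl groups from later intermediates, at 9.47, its partner nsdhl at 6.53, and dhcr7, which makes cholesterol from its last precursor, at 8.21, each the highest of 18. The array was picked for its levels of hmgcs1, fdps and cyp51, so a count over the members repeats that choice. This array exceeded both other vehicle pools of its day by over 0.5 in 3 of 4 sterol members and 5 of 8 other pathway genes. The same held for 0 of 9 genes of sterol control and transport, 0 of 24 lipid carriers, 0 of 13 fatty acid genes and 429 of all 8793 genes (4.88%). The gap between the 3′ and 5′ GAPDH control probe sets was 2.24 on this array, and that of the actin pair 1.64.

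Without that array the TCDD difference at 3 dpa was 0.41 for hmgcs1, 0.51 for cyp51 and -0.03 for fdps, against -0.12, -0.24 and -0.42 with it, and none passed either way. This array turned the direction for hmgcs1 and cyp51. Within letters the TCDD minus vehicle difference of hmgcs1 at 3 dpa was 0.55 for A, -1.55 for B and 0.65 for C. For fdps it was 0.15, -1.30 and -0.12, and for cyp51 0.35, -1.23 and 0.16. For hmgcs1 and cyp51 letter B was the only 1 of the 3 with a negative difference.

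Levels of several sterol genes followed the replicate letter. Cyp51 ran from 5.75 to 7.30 on the 6 letter B arrays, and on the other 12 from 4.74 to 5.83. Msmo1 ran from 7.73 to 9.47 on letter B and from 6.94 to 7.75 on the others. Letter D, with 3 arrays from 1 and 5 dpa, was lowest for nsdhl, at 4.31 to 4.44 against 4.90 to 6.53 on the other 15, and for dhcr7, at 6.67 to 6.91 against 7.06 to 8.21. Fdft1, squalene synthase, was also lowest on letter D, at 5.62 to 6.15 against 6.32 to 7.49. What a letter stands for is not stated in the labels.

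As a description, the letter means took 72.2% of the variance of cyp51 over the 18 arrays and the 6 group means took 10.7%. For fdft1 these shares were 68.1% and 8.1%, for nsdhl 64.6% and 17.3%, and for msmo1 55.3% and 6.9%. The letter share was the larger in 6 of 12 sterol genes and in 31.2% of all 8793 genes. For apoeb and apoc1 the groups took 92.0% and 89.9% and the letters 32.0% and 20.7%. Letters are spread unevenly over groups, so the shares overlap.

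**Figure D4:**
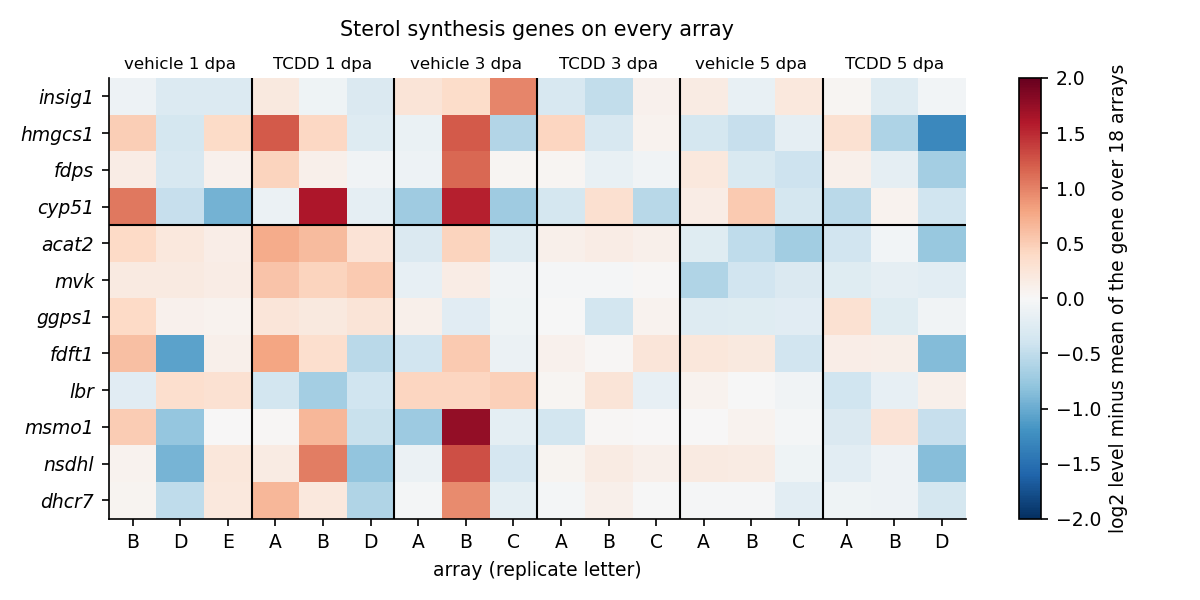
Level of 12 sterol synthesis genes on each of the 18 arrays, as log2 difference from the gene's own mean over all arrays (red above, blue below), with arrays grouped by exposure and day and named by replicate letter. The 4 members stand above the horizontal line and 8 other pathway genes below it. The column of vehicle pool B at 3 dpa is red for hmgcs1, fdps, cyp51, msmo1, nsdhl and dhcr7, and the columns of letter D are blue for fdft1, nsdhl and dhcr7.

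The members varied together only in part. Across the 18 arrays hmgcs1 and fdps correlated at r = 0.82, and at 0.85 once the group means were removed. Cyp51 correlated with hmgcs1 at 0.38 and with fdps at 0.48. Insig1 went its own way, with r = 0.08 to hmgcs1, -0.08 to cyp51 and 0.32 to fdps. Outside the members, the probe sets most like the mean standardised level of the 4 sterol genes, among 7457, were those of dhcr7 (r = 0.82), msmo1 (0.79), nsdhl (0.78), arpc5a (0.78) and znf598 (0.76). With group means removed the r of these 5 was 0.83, 0.84, 0.80, 0.69 and 0.74. These correlations are over arrays that share letters and, for 1 array, the high levels described above.

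The other genes of the pathway numbered 8 measured of 22 listed. TCDD changed 0 of the 8 at 1, 3 or 5 dpa in limma, with 2, 1 and 0 at an unadjusted p under 0.05. In the mean effect 1 of the 8 fell, against 3.78% of all probe sets called in either direction. This was lbr, a sterol reductase of the nuclear envelope that also binds lamin B, by 0.39 ± 0.10 (limma's adjusted p = 0.034). Leaving out any 1 of 12 arrays ended that call (adjusted p up to 0.074). With time 2 early enzymes fell. Mvk, mevalonate kinase, fell from 1 to 5 dpa by 0.60 ± 0.12 in vehicle (limma's adjusted p = 0.0030) and by 0.73 ± 0.12 in TCDD fins (limma's adjusted p = 0.00073). Acat2, which joins acetyl-CoA units at the entry to the pathway, fell by 0.73 ± 0.21 in vehicle (limma's adjusted p = 0.027) and by 0.95 ± 0.21 in TCDD fins (limma's adjusted p = 0.0058). The vehicle call of acat2 ended without vehicle B or D at 1 dpa or B or C at 5 dpa (adjusted p up to 0.10). These were the 2 of 8 that passed in each course, both downward, where 17.3% of all probe sets passed in vehicle and 19.1% in TCDD fins. Mvk also fell from 1 to 3 dpa in TCDD fins, by 0.52, the only 1 of 8 to pass there, against 10.8% of all probe sets.

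Genes of sterol control and transport gave 9 measured of 30 listed, and TCDD changed 0 of them on any day or in the mean effect in limma, with 0, 2, 3 and 3 at an unadjusted p under 0.05. From 1 to 5 dpa in vehicle fins mbtps1, the protease that makes the first cut of SREBP, rose by 0.52 and npc1, which exports cholesterol from lysosomes, fell by 0.52, both lost with the letter block (adjusted p = 0.084 and 0.062). In vehicle fins 2 of 9 thus passed, against 17.3% of all probe sets. In TCDD fins 3 of 9 rose over the same days, against 19.1% called in either direction: mylipa, a zebrafish homologue of the ubiquitin ligase for the LDL receptor, by 1.22 ± 0.29 (limma's adjusted p = 0.0079), cyp27a1.1, a sterol hydroxylase, by 1.16 ± 0.29 (limma's adjusted p = 0.011), and mbtps1 by 0.48. From 1 to 3 dpa mylipa rose by 1.36 ± 0.29. The mbtps1 and npc1 calls each ended without any 1 of 4 arrays of the groups compared (adjusted p up to 0.13).

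Fatty acid synthesis, which SREBP1 drives, was followed through 13 measured genes of 22 listed. TCDD changed 0 of 13 on any single day in limma, with 3, 2 and 2 at an unadjusted p under 0.05. In the mean effect 1 of 13 rose, against 3.78% of all probe sets called in either direction. That gene was mid1ip1l, of the family of proteins that activate acetyl-CoA carboxylase, higher by 1.03 ± 0.20 (limma's adjusted p = 0.0080). In vehicle fins fads2, a fatty acid desaturase, rose from 1 to 3 dpa by 2.65 ± 0.61 from a mean level of 3.43 (limma's adjusted p = 0.019), with a wide spread of 1.42 (SD) at 3 dpa, and the call ended without vehicle D or E at 1 dpa or A or C at 3 dpa (adjusted p up to 0.11). Acsl1a, an acyl-CoA synthetase, rose by 0.98 from 1 to 5 dpa in vehicle fins (limma's adjusted p = 0.0084, and 0.053 with the letter block), and elovl1b, a fatty acid elongase, fell by 0.45 (limma's adjusted p = 0.033, and 0.22 with the letter block). The elovl1b call also ended without vehicle B or E at 1 dpa or A or B at 5 dpa (adjusted p up to 0.13). Me1, which supplies NADPH, rose by 1.199 from 1 to 3 dpa in TCDD fins (limma's adjusted p = 0.0047). In vehicle fins 1 of the 13 thus passed from 1 to 3 dpa, against 5.51% of all probe sets. From 1 to 5 dpa 1 rose and 1 fell there, against 17.3%. In TCDD fins 1 of 13 passed from 1 to 3 dpa, against 10.8%. From 1 to 5 dpa 1 of 13 rose there and 2 fell, against 19.1%. Me1 rose by 0.92, and elovl1b and the dim scd fell by 0.40 and 0.09. With the letter block me1 and elovl1b passed (limma's adjusted p = 0.0059 and 0.018) and scd did not (0.081). Single arrays left out ended the call of me1 for 2 of 18, of elovl1b for 15 and of scd for 16.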

How the data were processed

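The authors deposited 1 linear intensity per probe set and array, made with GCRMA per the submitters' processing notes, without a stated version. Array medians ran from 74.28 to 83.55. From 15617 probe sets, 115 controls were removed. Symbols came from the platform annotation, updated through RefSeq: 10795 probe sets had 1 symbol (10711 in that table), 135 several and 4572 none.

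Here log2(intensity + 1) was fitted with limma 3.58.1 in R 4.3.3: 6 group means over 18 arrays, eBayes with a mean trend, two-sided tests, Benjamini-Hochberg adjustment over 15502 probe sets and a threshold of 0.05. Every adjusted p comes from limma. The fit was tested on simulated data. Figures used matplotlib 3.10.9.

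Members and gene lists were chosen with earlier results of these data known. Genes outside the members were named by a rule: those of the lists that passed for TCDD, up to 4 per lipid or sterol list that passed in the vehicle course, and the 5 most like apoeb or the sterol mean. Other names, such as those given for the course in TCDD fins, were picked with their values in view. Alternatives were the letter block, quantile normalization, median centring, a pseudocount of 16, no trend, a level filter, other probe sets, only the groups compared, no letter C and leaving out each array. The letters pair arrays: 7 of 7 same-day pairs of 1 letter had deviations from the group mean correlated above 0.1 (0.20 to 0.70), against 2 of 20 pairs of different letters. Such deviations sum to 0 within a group, so high values for 1 letter push those of different letters down. These counts are therefore not independent of each other.

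No sequence is shown, because no sequence table was used here.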

Additional observations from a re-analysis of the deposited data

Results flagged for a closer look

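For 4 of the measured genes, every letter-matched pair of TCDD and vehicle pools on 1 day moved opposite to every such pair on another day. Each day had 2 or 3 such pairs, and the limma test of each difference missed its threshold. The share of all genes that meets this rule was not counted. The count of 4 is therefore not a result about the members. For apoc1 the TCDD effect at 3 dpa exceeded that at 1 dpa by 2.18 ± 0.59 (SE, limma's adjusted p = 0.78), and that at 5 dpa exceeded that at 1 dpa by 1.66 ± 0.59 (limma's adjusted p = 0.21). For apoeb the corresponding differences were 0.33 ± 0.14 for 3 dpa (limma's adjusted p = 1.0) and 0.33 ± 0.14 for 5 dpa (limma's adjusted p = 0.29). For cyp51 the effect at 5 dpa less that at 1 dpa was -0.95 ± 0.89 (limma's adjusted p = 0.68). For the dim apoa1a the effect at 5 dpa less that at 3 dpa was -0.14 ± 0.21 (limma's adjusted p = 0.88). Its effect at 5 dpa less that at 1 dpa was 0.065 ± 0.21 (limma's adjusted p = 0.93), against the direction of the letter-matched pairs, which were 0.034 and 0.047 at 1 dpa and -0.213 and -0.077 at 5 dpa. That fit includes TCDD pool D at 5 dpa (3.95), which has no vehicle partner on that day, and with the letter block the difference was -0.11.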

How the results depend on the processing

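Members passing for TCDD at 3 dpa numbered 3 with the replicate block, 0 with only the groups compared, 0 without letter C and 0 to 1 when each array was left out, against 1 as reported. At 5 dpa they numbered 2 with the replicate block, 1 after quantile normalization and 0 to 1 over the left-out arrays, against 0. In the mean effect they numbered 1 without letter C and 1 to 2 over the left-out arrays, against 2. For vehicle from 1 to 3 dpa, against 2, they numbered 0 with the replicate block, after quantile normalization, with only the groups compared and without letter C, 1 after median centring, 1 with the second probe set and 0 to 2 over the left-out arrays. From 1 to 5 dpa they numbered 1 with the replicate block and 1 with only the groups compared, against 2. Of 1833 values of the 7 genes under these alternatives, 1780 kept their direction and their side of the threshold or were uncalled throughout, 47 fell short of the threshold, 6 newly passed it and 0 called values changed sign; 86 uncalled values changed sign. The causes were not tested. The files hold no background measure, so it is unknown how far dim genes such as apoa1a stand above background.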
